A study of Homo sapiens with 6 samples.

Results

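The genes described here carry symbols that begin with EIF or EEF and a digit, the names of the eukaryotic translation initiation and elongation factors. They were taken from the count tables by symbol alone, without the genes of the eIF2-alpha kinases and 1 further gene, and not by any measured value. The choice of these genes was made with earlier results of these data known. The rule found 66 of the 20683 symbols. They fall into 5 EIF2B, 15 EIF3, 16 EIF4 and 14 EEF genes and 16 other EIF genes. Not every one encodes a factor. EIF3J-DT and EIF1B-AS1 are noncoding RNAs, EIF3IP1 and EEF1DP3 are pseudogenes, and EEF1AKMT1, EEF1AKMT2, EEF1AKMT3 and EEF2KMT encode methyltransferases that modify elongation factors. EEF1AKMT4-ECE2 is a readthrough gene.

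The cells were HT-1080, an established human fibrosarcoma line. One group had been kept for 4 h with the compound SLV-8472-01, known here by that code alone and described in the series as an inhibitor of the kinase IRAK4, at a labelled dose of 5 mM. The labels do not say whether that is the dose on the cells or of a stock. The other group had 0.1% DMSO for 4 h. No DMSO percentage is recorded for the inhibitor group. Each group had 3 libraries, described as biological replicates of that 1 line, and the comparison asked which mRNAs differ after the inhibitor. No genotype or transgene is labelled in either group.

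Translation of most mRNAs starts when the eIF4F complex, made of the cap-binding protein eIF4E, the scaffold eIF4G and the helicase eIF4A, binds the 5′ cap and recruits the small ribosomal subunit with eIF3 and the initiator tRNA that eIF2 delivers. eIF2B recharges eIF2 with GTP and is blocked when eIF2 is phosphorylated under stress, and the 4E-binding proteins hold eIF4E inactive unless the kinase mTORC1 phosphorylates them. The eEF1 complex then brings each aminoacyl-tRNA to the ribosome, and eEF2 moves the ribosome along the mRNA. mRNA counts, as used here, measure neither the amount nor the phosphorylation of these proteins.

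These promoters belong to 4 of the genes called below. They are shown because EIF3J lies back to back with a noncoding gene that changed the other way, and because each holds a match to a known motif. The motifs were chosen after the sequences were seen. The sequences are from RefSeq on GRCh38.p14, end at the base before the annotated start and are written 5′ to 3′ on the strand of the gene. Capitals mark matches, on either strand, to CACGTG (the E-box, read by MYC and related factors), TGACGTCA (the cyclic AMP response element, CRE) or TGANTCA (the AP-1 site). The first stretch, chr15:44536924-44537146 on the plus strand, holds all 223 bases between the starts of EIF3J and of EIF3J-DT, which is transcribed the other way. The others are 250 bases of EIF4E (chr4:98929134-98929383, minus strand), 100 bases of EEF2 (chr19:3985464-3985563, minus strand) and 100 bases of EIF1B (chr3:40309607-40309706, plus strand).
EIF3J: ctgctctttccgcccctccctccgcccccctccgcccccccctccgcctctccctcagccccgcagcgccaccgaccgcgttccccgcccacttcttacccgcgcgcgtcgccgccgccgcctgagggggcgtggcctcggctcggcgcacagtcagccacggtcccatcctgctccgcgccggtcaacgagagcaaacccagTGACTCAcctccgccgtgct
EIF4E: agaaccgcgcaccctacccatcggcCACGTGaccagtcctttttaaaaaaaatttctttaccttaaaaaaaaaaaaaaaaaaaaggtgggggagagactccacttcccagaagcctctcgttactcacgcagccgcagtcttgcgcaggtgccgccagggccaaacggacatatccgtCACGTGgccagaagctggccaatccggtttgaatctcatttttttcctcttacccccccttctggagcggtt
EEF2: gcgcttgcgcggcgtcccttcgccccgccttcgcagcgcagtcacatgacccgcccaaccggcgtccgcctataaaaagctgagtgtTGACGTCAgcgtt
EIF1B: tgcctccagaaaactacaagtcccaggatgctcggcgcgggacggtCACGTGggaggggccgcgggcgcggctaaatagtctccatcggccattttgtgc

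The AP-1 match lies 20 to 14 bases before the EIF3J start, inside the stretch it shares with EIF3J-DT. EIF4E holds 2 E-boxes, at 225 to 220 and at 72 to 67 bases before the start, EIF1B holds 1, at 54 to 49 bases, and the CRE match of EEF2 lies 13 to 6 bases before the start. Windows of 300 bases around the start, 250 before it and 50 after, were matched for 47 of the 59 tested genes. Members were counted by gene, with a match in any window of the gene, and the background was counted by window. A gene with several windows has more chances of a match, so the shares below are unlike measures and show no enrichment. CACGTG was in those of 12 genes (25.5%), against 7.26% of all 35116 RefSeq windows, which include noncoding genes, and of the 12 only EIF4E and EIF1B were called. TGANTCA was in 4 of the 47 (8.51%, all windows 7.71%), EIF3J and EIF3J-DT with overlapping windows among them, and TGACGTCA in 1 (2.13%, all windows 1.85%). TGATGNAA, the core of the amino acid response element that ATF4 binds, was in 1 of the 47, EIF4E3, and in 3.62% of all windows. These letter matches are descriptions and say nothing of binding in these cells.

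The Ion AmpliSeq Transcriptome panel amplifies a stretch of each transcript by PCR. Total counts per library were 7644478 to 11427779 in the inhibitor group and 12003104 to 15336351 in the DMSO group. Values are given as CPM, counts scaled to a library of 1000000 with TMM factors, which correct for differences in RNA composition. Since each gene is read through its own amplicon, CPM compare libraries for 1 gene and not the levels of 2 genes. A call, and the words rose and fell, mean an adjusted p under 0.05 in edgeR's quasi-likelihood test over all tested genes, with Benjamini-Hochberg adjustment. A log2 fold change is inhibitor minus DMSO and is given ± its SE. The mesenchymal markers summed to 10023 to 12278 CPM with the inhibitor and 9234 to 10148 CPM with DMSO. THY1 was the lowest of them, at a mean of 0.0746 CPM with the inhibitor and 0.0212 CPM with DMSO. The 5 epithelial markers summed to 1.07 to 1.26 CPM with the inhibitor and 1.25 to 2.10 CPM with DMSO, and of them only CDH1 had no counts. The 4 blood markers, PTPRC and CD3E without counts among them, summed to at most 0.134 CPM in any library. The 2 endothelial markers summed to at most 0.914 CPM. Of the 7 mesenchymal markers tested 5 rose, where 9.92% of all tested genes rose, and the part of these markers in the results was not tested. The members held 3.52%, 3.72% and 3.96% of all counts in the inhibitor libraries, against 3.59%, 3.61% and 3.65% in the DMSO libraries.

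Of 59 translation factor genes tested, 4 rose (EEF2, EIF1B, EIF4EBP1 and the noncoding EIF3J-DT) and 4 fell (EIF3J, EIF2B4, EIF4E and EEF1E1), and 51 were not called. The 8 calls are 13.6% of the tested members, where 20.2% of all 11391 tested genes were called (9.92% rose and 10.3% fell). Where the mean over all 6 libraries reached 10 CPM, 7 of 55 members and 22.5% of all genes were called. The median log2 fold change was -0.04 over the members and 0.00 over all tested genes. That median was 0.01 without inhibitor replicate 1. A bulk count cannot tell less of an mRNA per cell from fewer cells that hold it.

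The lack of a call does not show that a gene stayed the same, so the intervals matter. For 48 of the 59 members (81.4%) the 95% interval of the fold change lay within 1.5-fold in either direction, against 57.6% of all tested genes. These shares are not matched for abundance. A mean of 10 CPM was reached by 55 of the 59 members and 7952 of all 11391 tested genes, and the median SE was 0.110 and 0.133. Of the 51 members without a call, 45 had such an interval. Inhibitor and DMSO libraries did not overlap for 21 members (35.6%), where 36.3% of all tested genes had no overlap. With library totals alone as the scaling, 4 members rose and 11 fell, while 831 of all genes rose and 1714 fell, and the median of all genes moved to -0.07. The share called was then 25.4% of the members and 22.3% of all tested genes, and with no filter beyond 1 count it was 16.1% and 15.6%, so the order of the shares depends on the processing. Without DMSO replicate 2, 1 rose and 2 fell, and the count of changed genes was 1405 in place of 2298. Without inhibitor replicate 1, 4 rose and 1 fell (8.47% of the members and 14.3% of all tested genes called). Without DMSO replicate 3, 4 rose and 2 fell (10.2% and 14.5%). In edgeR's test against a fold of 1.2, EIF3J was the 1 member called (adjusted p = 0.000436), and the other 7 had an adjusted p from 0.0931 to 0.466.

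**Figure D1:**
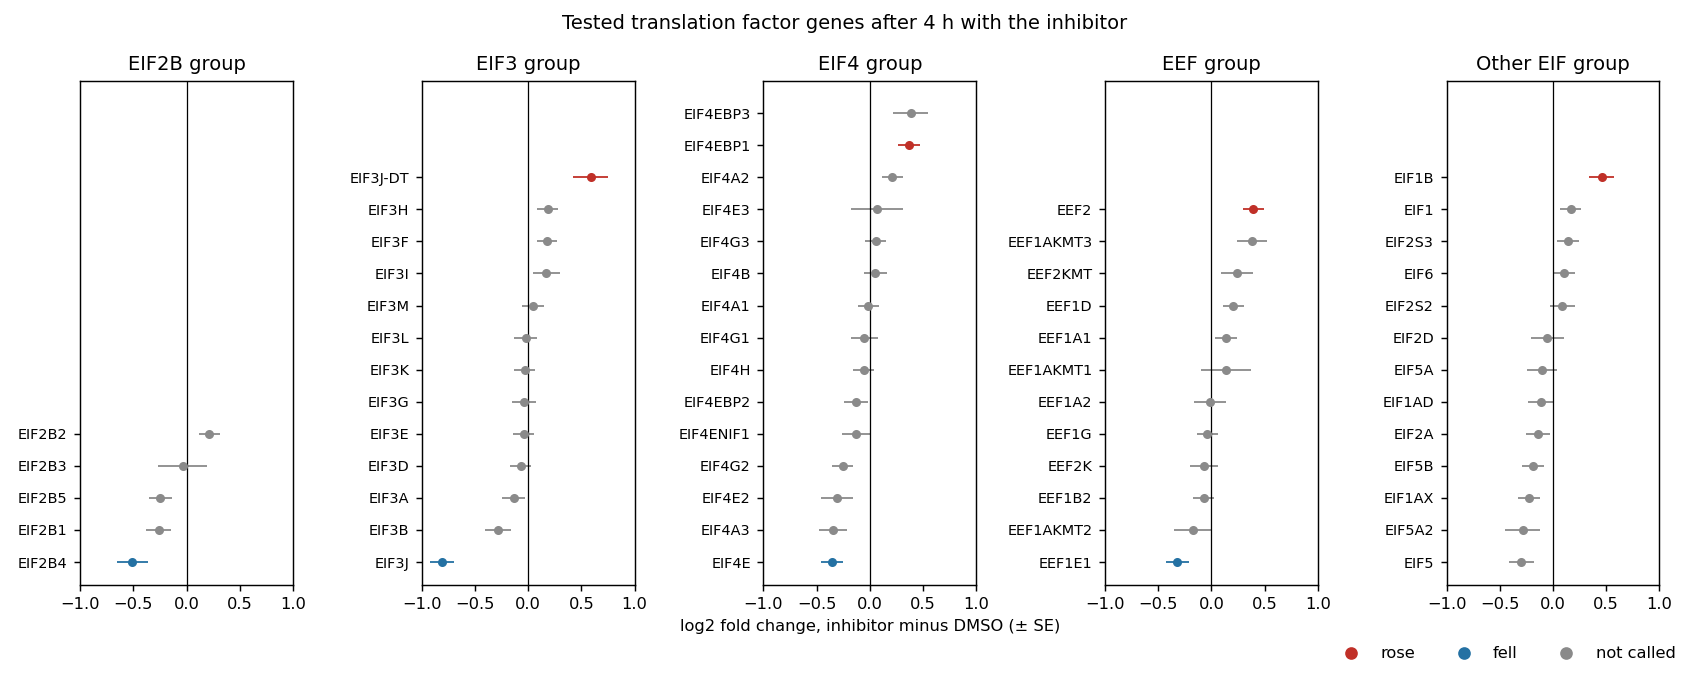
log2 fold change (inhibitor minus DMSO, ± SE) of the tested genes, in 1 panel for each group; red points rose, blue points fell and grey points were not called. EIF3J lies apart at -0.81, and the other genes drawn lie between -0.51 and 0.59. EIF1AY is not drawn.

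EIF3J had the largest change. It encodes eIF3j, a loosely bound subunit of eIF3 that reaches into the mRNA channel of the small ribosomal subunit and also acts when ribosomes are recycled. EIF3J was at 28.2, 27.3 and 28.7 CPM in the inhibitor libraries, against 52.3, 45.5 and 49.3 CPM in the DMSO libraries. The inhibitor libraries lay close together and well under every DMSO library. EIF3J fell by 0.81 on the log2 scale (SE 0.11, edgeR adjusted p = 2.47e-05), a level 0.572 times that with DMSO. It was called under all 17 alternatives, with a log2 fold change from -0.88 to -0.76 and an adjusted p from 4.55e-09 to 0.000436.

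Its divergent noncoding neighbour, EIF3J-DT, changed the other way. EIF3J-DT was at 9.42, 11.6 and 9.51 CPM in the inhibitor libraries, against 6.56, 6.84 and 6.98 CPM in the DMSO libraries, again with no overlap. It rose by 0.59 ± 0.17 on the log2 scale (edgeR adjusted p = 0.0148), but leaving out inhibitor replicate 2 gave 0.0882 and leaving out DMSO replicate 2 gave 0.0543, past the threshold (alternatives 0.0115 to 0.0931). Its mean of under 10 CPM falls outside the rule for naming genes, and it is named after its values were seen. The ratio of EIF3J-DT to EIF3J counts, which does not depend on scaling, was 0.33, 0.43 and 0.33 in the inhibitor libraries, against 0.13, 0.15 and 0.14 in the DMSO libraries. It averaged 0.364 ± 0.0538 with the inhibitor and 0.139 ± 0.0128 with DMSO (SD, n = 3 each). The ratio was chosen after both genes were seen and is given without a test. The strand setting of the counting is not given in the sources used here. The annotated starts of both genes leave 223 bases between them, shown above.

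**Figure D2:**
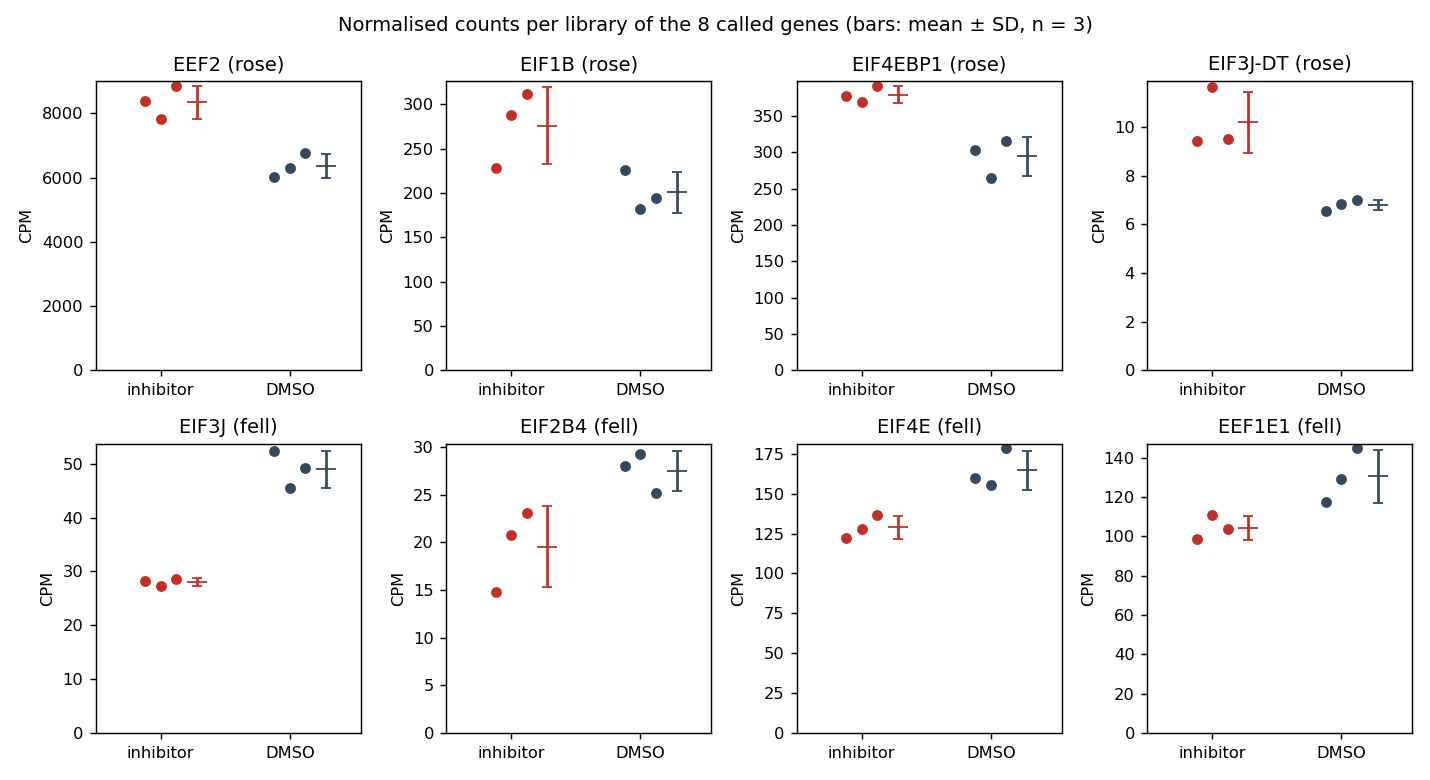
CPM in each library for the 8 genes called, with points for libraries and bars for the mean ± SD (n = 3). In each panel the inhibitor libraries lie wholly above or wholly below the DMSO libraries, closest for EIF1B, at 228 with the inhibitor and 226 CPM with DMSO.

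No other subunit gene of eIF3 was called. Of 12 tested, EIF3J was the 1 called (8.33%, 20.2% over all tested genes). With EIF3J-DT, 2 of the 13 tested genes of the EIF3 group were called (15.4%). The other 11 had 95% intervals within 1.5-fold in either direction, as did 57.6% of all tested genes. The most abundant in counts, EIF3E, was at 755, 779 and 801 CPM in the inhibitor libraries, against 815, 799 and 793 CPM in the DMSO libraries. Its groups overlapped, with a log2 fold change of -0.04 ± 0.09 (95% interval -0.24 to 0.15). EIF3E encodes a subunit of the octamer at the core of eIF3. EIF3A, for the largest subunit, had a log2 fold change of -0.14 ± 0.11, and EIF3B, for a partner of eIF3a outside the octamer, one of -0.28 ± 0.12 (edgeR adjusted p = 0.114). EIF3B was called as lower with library totals alone (0.0354) and with no filter beyond 1 count (0.0441). EIF3B ran from 119.8 to 161 CPM with the inhibitor and from 153 to 206 CPM with DMSO. EIF3F, EIF3H and EIF3I lay higher in every inhibitor library than in any DMSO library, with log2 fold changes of 0.18 ± 0.10, 0.18 ± 0.10 and 0.17 ± 0.13, and none was called (edgeR adjusted p = 0.213, 0.196 and 0.369). EIF3D, EIF3G, EIF3K, EIF3L and EIF3M had log2 fold changes between -0.07 and 0.05. The median over the EIF3 group was -0.03, and 0.02 without inhibitor replicate 1. EIF3C, a core subunit with a near-identical gene copy, had 0 counts in every library, so its level is not known from these tables.

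The EIF2B genes encode the subunits of the exchange factor for eIF2. EIF2B4, for the delta subunit of its regulatory core, was the 1 of 5 that was called (20%, 20.2% over all tested genes). It was at 14.8, 20.8 and 23.0 CPM in the inhibitor libraries, against 28.0, 29.3 and 25.2 CPM in the DMSO libraries. Every inhibitor library lay under every DMSO library, and inhibitor replicate 1 was the lowest. EIF2B4 fell by 0.51 on the log2 scale (SE 0.14, edgeR adjusted p = 0.0153). Leaving out inhibitor replicate 1 raised the adjusted p to 0.114, and leaving out DMSO replicate 2 raised it to 0.0735, so that either one ends the call (alternatives 0.00175 to 0.129).

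The catalytic epsilon subunit gene EIF2B5 was at 47.4, 50.5 and 45.7 CPM in the inhibitor libraries, against 54.1, 58.8 and 57.7 CPM in the DMSO libraries. Its groups did not overlap, but the log2 fold change of -0.25 ± 0.11 was not called (edgeR adjusted p = 0.107). EIF2B1, for the alpha subunit, had a log2 fold change of -0.26 ± 0.12 (adjusted p = 0.111) with overlapping groups. EIF2B2, for the beta subunit, differed upward, at 138, 142 and 153 CPM in the inhibitor libraries, against 122, 129 and 122 CPM in the DMSO libraries, again without a call (log2 fold change 0.21 ± 0.10, edgeR adjusted p = 0.136). EIF2B3, for the gamma subunit, had a mean of 3.82 CPM with the inhibitor and 3.87 CPM with DMSO and a wide interval (-0.51 to 0.44). The median over the 5 genes was -0.25, against 0.00 over all tested genes, and -0.17 without DMSO replicate 1. With library totals alone, EIF2B1 and EIF2B5 were also called as lower (adjusted p = 0.0399 and 0.039).

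In the cap-binding machinery, the mRNA of the cap-binding protein and that of its repressor changed in opposite directions, with both estimates under 1.5-fold. EIF4E was at 122, 128 and 137 CPM in the inhibitor libraries, against 159.8, 155 and 178 CPM in the DMSO libraries. No inhibitor library reached the lowest DMSO library. EIF4E fell by 0.35 on the log2 scale (SE 0.10, edgeR adjusted p = 0.0174). Leaving out inhibitor replicate 1 gave an adjusted p of 0.0622, inhibitor replicate 2 one of 0.0583 and DMSO replicate 3 one of 0.0843, each of which ends the call (alternatives 0.00408 to 0.343).

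EIF4EBP1, which encodes the 4E-binding protein 4E-BP1, was at 378, 369 and 392 CPM in the inhibitor libraries, against 304, 265 and 316 CPM in the DMSO libraries. All inhibitor libraries lay above all DMSO libraries. EIF4EBP1 rose by 0.37 ± 0.10 on the log2 scale (edgeR adjusted p = 0.0126), a call lost without DMSO replicate 2 (adjusted p = 0.102), over a range of 0.00397 to 0.29. The ratio of EIF4EBP1 to EIF4E counts was 3.10, 2.89 and 2.87 in the inhibitor libraries, against 1.90, 1.70 and 1.77 in the DMSO libraries. That is 2.95 ± 0.129 with the inhibitor and 1.79 ± 0.101 with DMSO (SD, n = 3 each), again chosen after both genes were seen and given without a test. As the amplicons differ, the ratio does not give molecules of one mRNA per molecule of the other.

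**Figure D3:**
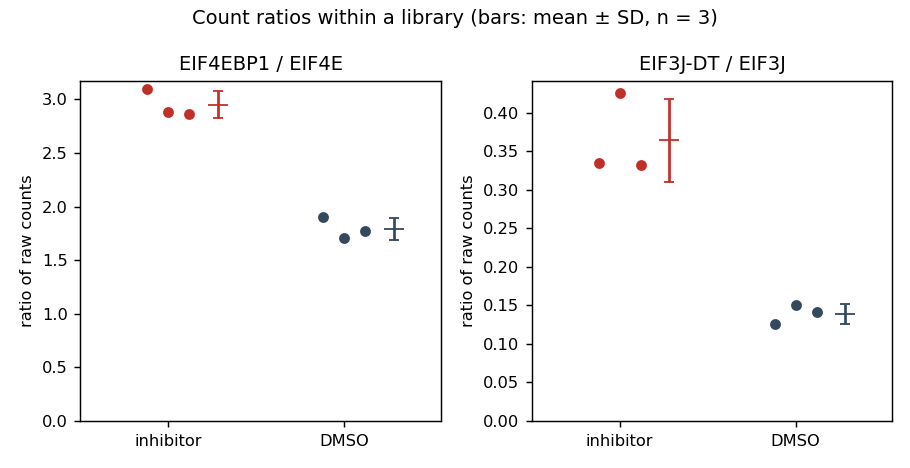
Ratio of raw counts within each library for EIF4EBP1 over EIF4E and for EIF3J-DT over EIF3J; points are libraries and bars the mean ± SD (n = 3). Both ratios were higher in each inhibitor library than in any DMSO library, on average 2.95 with the inhibitor against 1.79 with DMSO for the first and 0.364 against 0.139 for the second.

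The other 2 tested repressor genes were not called. EIF4EBP2 was at 100.4 ± 7.60 CPM with the inhibitor and 109.5 ± 14.5 CPM with DMSO (log2 fold change -0.13 ± 0.11, edgeR adjusted p = 0.456; SD of 3 libraries). EIF4EBP3 was at 11.5, 10.4 and 13.9 CPM in the inhibitor libraries, against 10.6, 8.14 and 8.56 CPM in the DMSO libraries, with overlap (log2 fold change 0.38 ± 0.17, edgeR adjusted p = 0.107). EIF4E2, a cap-binding relative that represses translation, had a log2 fold change of -0.31 ± 0.15 and EIF4E3 one of 0.07 ± 0.24. EIF4ENIF1, which carries eIF4E to the nucleus, had a log2 fold change of -0.13 ± 0.13. Of the helicase genes, EIF4A1 was the most abundant gene of the EIF4 group without a call, at 2430.1, 2762 and 2694 CPM in the inhibitor libraries, against 2567, 2643 and 2765 CPM in the DMSO libraries. Its groups overlapped and its 95% interval was narrow (-0.22 to 0.19). EIF4A2, a close paralogue, was higher in every inhibitor library than in any DMSO library, at 942, 1051 and 1028 CPM in the inhibitor libraries, against 813, 871 and 929.7 CPM in the DMSO libraries, without a call (log2 fold change 0.21 ± 0.10, edgeR adjusted p = 0.143).

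EIF4A3, which despite its name works mainly in the exon junction complex, was at 37.4, 48.5 and 31.9 CPM in the inhibitor libraries, against 53.0, 52.0 and 44.9 CPM in the DMSO libraries. It was not called (log2 fold change -0.34 ± 0.13, edgeR adjusted p = 0.0695), but it was with library totals alone, with no filter beyond 1 count and without inhibitor replicate 2 (adjusted p = 0.0235, 0.0236 and 0.0125). Among the scaffolds, EIF4G1 ran from 1602 to 2510.2 CPM across the inhibitor libraries and from 1938 to 2219 across the DMSO libraries, and its log2 fold change was -0.05 ± 0.13. EIF4G2, a scaffold that lacks the eIF4E-binding part, was at 732, 734 and 744 CPM in the inhibitor libraries, against 805, 940.4 and 895 CPM in the DMSO libraries. Its groups did not overlap, and it missed the threshold (log2 fold change -0.26 ± 0.10, edgeR adjusted p = 0.0695), passing it with DESeq2 (0.0427) and with library totals alone (0.0188). EIF4G3 (log2 fold change 0.05 ± 0.10) and the eIF4A cofactor genes EIF4B (log2 fold change 0.05 ± 0.11) and EIF4H (log2 fold change -0.06 ± 0.10) had intervals within 1.5-fold. Of the EIF4 group 15 were tested and 2 called (13.3%, 20.2% over all tested genes). The median of the 15 was -0.05, and it was 0.02 without inhibitor replicate 1 and near 0 without DMSO replicate 3. EIF4E1B had 0 counts in every library.

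Of the elongation factors, EEF2 rose. It encodes eEF2, the GTPase that drives translocation, and was at 8379.7, 7817 and 8846 CPM in the inhibitor libraries, against 6014, 6294 and 6773 CPM in the DMSO libraries. Every inhibitor library was above every DMSO library. EEF2 rose by 0.39 ± 0.10 on the log2 scale (edgeR adjusted p = 0.00785), a 1.31-fold difference. The call was lost without DMSO replicate 1 (adjusted p = 0.0576), over a range of 0.000727 to 0.215. EEF2K, whose kinase inhibits eEF2, was at 55.3 ± 5.35 CPM with the inhibitor and 58.1 ± 12.5 CPM with DMSO (SD, n = 3 each; log2 fold change -0.07 ± 0.13), with overlapping groups. EEF2KMT, whose product methylates eEF2, had a log2 fold change of 0.24 ± 0.15 (edgeR adjusted p = 0.288).

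The carriers of aminoacyl-tRNA and their exchange factors were not called. EEF1A1, for the main carrier of aminoacyl-tRNA and the most abundant EEF gene in counts, was at 9296, 10540.1 and 11479 CPM in the inhibitor libraries, against 9764, 8892 and 9791 CPM in the DMSO libraries, and its groups overlapped (log2 fold change 0.14 ± 0.10, 95% interval -0.08 to 0.35). The exchange factor genes EEF1B2, EEF1D and EEF1G had log2 fold changes of -0.07 ± 0.10, 0.20 ± 0.10 and -0.04 ± 0.10. EEF1D was higher in each inhibitor library than in any DMSO library, with an adjusted p = 0.15 in the edgeR test. EEF1A2, the form of muscle and nerve, had a log2 fold change of -0.01 ± 0.15. Whether the change of EEF2 differs from that of EEF1A1 was not tested.

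EEF1E1 was the EEF gene that fell. Its product, also called AIMP3 or p18, is a scaffold of the multi-tRNA synthetase complex. EEF1E1 was at 98.5, 111 and 104 CPM in the inhibitor libraries, against 117, 129 and 145 CPM in the DMSO libraries, without overlap. It fell by 0.32 on the log2 scale (SE 0.11, edgeR adjusted p = 0.0367). Of the 8 calls this one was lost under the most alternatives, with upper-quartile scaling (adjusted p = 0.0521) and without any one library other than DMSO replicate 1 (0.0526 to 0.17), over a range of 0.00958 to 0.466. Of the methyltransferase genes, EEF1AKMT3 was higher in every inhibitor library, at 14.8, 14.4 and 14.3 CPM in the inhibitor libraries, against 11.2, 11.4 and 10.7 CPM in the DMSO libraries. It narrowly missed the threshold (log2 fold change 0.39 ± 0.14, edgeR adjusted p = 0.0567) and passed it with upper-quartile scaling (0.0448) or a minimum mean of 10 CPM (0.0491). EEF1AKMT1 and EEF1AKMT2 had log2 fold changes of 0.14 ± 0.23 and -0.17 ± 0.18. Of the 12 tested EEF genes 2 were called (16.7%, 20.2% over all tested genes). The median of the 12 was 0.06, and from -0.03 to 0.10 over the alternatives. EEF1DP3 and EEF1AKMT4-ECE2 had 1 and 2 counts in all, too few to test.

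Among the other initiation factors, EIF1B rose. It encodes a close relative of eIF1, the factor that guards the choice of the start codon. EIF1B was at 228, 288 and 312 CPM in the inhibitor libraries, against 226, 181 and 195 CPM in the DMSO libraries. The groups just failed to overlap, with inhibitor replicate 1 next to DMSO replicate 1. EIF1B rose by 0.46 ± 0.12 on the log2 scale (edgeR adjusted p = 0.00841), a call lost without DMSO replicate 2 (adjusted p = 0.0703), over a range of 0.000856 to 0.136. EIF1 itself, the most abundant gene of this group in counts, was at 1715, 1817 and 1510.5 CPM in the inhibitor libraries, against 1527, 1443 and 1523 CPM in the DMSO libraries, with overlapping groups (log2 fold change 0.17 ± 0.10, edgeR adjusted p = 0.258). The antisense gene EIF1B-AS1 had 10 counts in all, too few to test.

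EIF2S2 and EIF2S3, which encode the beta and gamma subunits of eIF2, had log2 fold changes of 0.09 ± 0.12 and 0.14 ± 0.10 without a call. EIF2A and EIF2D, which encode alternative initiator tRNA carriers, had log2 fold changes of -0.14 ± 0.11 and -0.05 ± 0.15. EIF5, for the GTPase-activating protein of eIF2, was at 40.9, 40.9 and 35.8 CPM in the inhibitor libraries, against 46.4, 44.0 and 54.7 CPM in the DMSO libraries, lower in every inhibitor library but not called (log2 fold change -0.30 ± 0.12, edgeR adjusted p = 0.0753). It passed the threshold with library totals alone (0.0244). EIF5B, for the GTPase that joins the ribosomal subunits, had a log2 fold change of -0.19 ± 0.10, and EIF1AX, for the X-linked form of eIF1A, one of -0.23 ± 0.10 (edgeR adjusted p = 0.212 and 0.121). EIF1AX was called as lower with library totals alone (0.0388). Both were lower in every inhibitor library than in any DMSO library. EIF6, which keeps the ribosomal subunits apart, was higher in every inhibitor library, with a log2 fold change of 0.11 ± 0.10, also without a call. EIF5A, the hypusine-bearing factor, and EIF5A2 had log2 fold changes of -0.10 ± 0.14 and -0.29 ± 0.16, and EIF1AD one of -0.11 ± 0.12. EIF1AY was tested and not called, and its values are not given. The near-copy EIF5AL1 and the pseudogene EIF3IP1 had 0 counts. Scaled by the library total without TMM factors, a level of 3 counts is 0.196 CPM in the deepest and 0.392 CPM in the shallowest library. A count of 0 sets no limit on a gene whose reads may be lost to a copy. RPSA, a ribosomal protein gene, had 1 count over the 6 libraries. Of the 14 tested genes of this group 1 was called (7.14%, 20.2% over all tested genes). The median of the 14 was -0.08, and -0.02 without DMSO replicate 3.

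Ratios of genes within a library are free of the scaling between libraries, and 10 pairs were compared, all paralogues except EIF5/EIF5B. EIF5 and EIF5B share a name but encode the different proteins described above. EIF4A1 over EIF4A2 had a log2 count ratio of 1.37, 1.39 and 1.39 in the inhibitor libraries, against 1.66, 1.60 and 1.57 in the DMSO libraries. The values within a group lay close together and the log2 ratio was lower by 0.23 with the inhibitor. EIF4EBP1 over EIF4EBP2 was at 2.04, 1.81 and 1.91 with the inhibitor, against 1.33, 1.21 and 1.76 with DMSO, higher by 0.49. These 2 of the 10 pairs had no overlap between groups. Each reached p = 0.1 in a two-sided exact permutation test, the smallest p that 3 against 3 libraries allow, and an adjusted p = 0.5 over the 10 pairs, so no pair could pass. EIF1 over EIF1B differed by -0.29 on the log2 scale and EIF4A1 over EIF4A3 by 0.35, both with overlap (exact permutation p = 0.2 each). The remaining 6 pairs (EEF1A1/EEF1A2, EIF5A/EIF5A2, EIF4G1/EIF4G3, EIF4G1/EIF4G2, EIF4E/EIF4E2 and EIF5/EIF5B) differed by -0.13 to 0.27, with exact permutation p from 0.4 to 0.9.

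**Figure D4:**
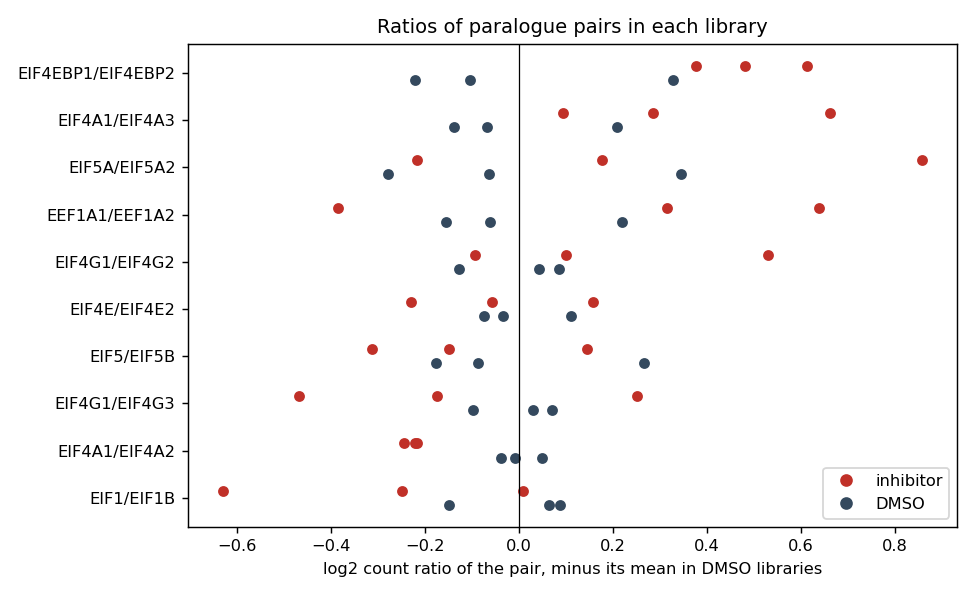
log2 count ratio of each compared pair in each library, minus the mean of that pair in the DMSO libraries. Red points are inhibitor and dark points DMSO libraries. EIF5/EIF5B is not a pair of paralogues. The groups stand apart for EIF4A1/EIF4A2, lower with the inhibitor, and for EIF4EBP1/EIF4EBP2, higher with it.

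Other genes of translation were counted beside the factors. Of 74 tested cytosolic ribosomal protein genes 4 rose and 0 fell (5.41% called, 20.2% over all genes), with a median log2 fold change of 0.06. RPS29 rose by 1.12 ± 0.11 on the log2 scale, averaging 45.8 ± 2.84 CPM with the inhibitor and 21.1 ± 0.782 CPM with DMSO (SD, n = 3 each), RPLP2 by 0.35 ± 0.11 and RPL28 by 0.32 ± 0.10 on that scale. The number of ribosomal protein genes that rose was 1 with library totals alone, 8 with upper-quartile scaling and 7 with limma voom. It was 7 without inhibitor replicate 3, 1 without DMSO replicate 2 and 2 without DMSO replicate 3. Over all genes 831, 1251, 1123, 1133, 684 and 820 rose in these settings, in that order, where 1130 rose in the edgeR test. Many ribosomal protein mRNAs and several factor mRNAs carry a 5′ terminal oligopyrimidine tract, through which mTORC1 controls their translation. Of 9 members known for it (EEF1A1, EEF1B2, EEF1D, EEF1G, EEF2, EIF3E, EIF3F, EIF3H and EIF4B), EEF2 was the 1 called (11.1%, all genes 20.2%), and their median was 0.14.

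Of 14 tested mTORC1 and MNK pathway genes, 2 rose and 1 fell (21.4% called, 20.2% over all genes), with a median of -0.01. MKNK2, for a kinase that phosphorylates eIF4E, was at 276, 233 and 267 CPM in the inhibitor libraries, against 163, 152 and 149 CPM in the DMSO libraries, clear of overlap, and rose by 0.74 ± 0.10 on the log2 scale (edgeR adjusted p = 2.31e-05). DEPTOR, for an inhibitory partner of mTOR, rose by 0.71 ± 0.25 on the log2 scale with a mean of 3.80 CPM with the inhibitor and 2.32 CPM with DMSO (edgeR adjusted p = 0.0448), and PDPK1, for a kinase that activates AKT and S6 kinase, fell by 0.43 on the log2 scale (adjusted p = 0.0162). DEPTOR was not called under 9 of the 16 alternatives that tested it, among them DESeq2, thinned libraries and library totals alone (adjusted p = 0.098, 0.186 and 0.0694), and both DEPTOR and PDPK1 lost their calls without inhibitor replicate 2 (0.146 and 0.095). Of 13 genes for poly(A)-binding proteins and initiation helpers, 1 rose and 3 fell (30.8% called, all genes 20.2%, as 9.92% that rose and 10.3% that fell), with a median of -0.13. PAIP2, for a repressor of poly(A)-binding protein, fell by 0.47 on the log2 scale (edgeR adjusted p = 0.0107). LARP4, which binds poly(A) tails, fell by 0.37 (adjusted p = 0.0214) and the helicase gene DHX29 by 0.34 (0.0328) on that scale. CYFIP1, for an eIF4E-binding protein, rose by 0.34 ± 0.10 on the log2 scale (0.0177). None of them was called in the test against a fold of 1.2. Of the whole list, 1 was called without inhibitor replicate 1, without DMSO replicate 1 or without DMSO replicate 3, and 2 without inhibitor replicate 2.

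None of 6 termination and recycling genes was called in the edgeR test, and none of 9 genes for the enzymes of hypusine and diphthamide. Over all tested genes 20.2% were called, and 0 calls in lists this small say little. Each list also had 0 genes at an unadjusted p under 0.05 in that test, as 3801 of all 11391 tested genes had. The medians were -0.02 and -0.04. DESeq2 and limma voom also called 0 in both lists. Of 10 mitochondrial translation factor genes 1 rose (10%, where 9.92% of all tested genes rose and 20.2% were called). It was MTIF2, for the mitochondrial initiation factor, at 123, 119 and 121 CPM in the inhibitor libraries, against 94.1, 90.2 and 90.3 CPM in the DMSO libraries (log2 fold change 0.40 ± 0.10, edgeR adjusted p = 0.00627). The number called was 2 under 6 of the 17 alternatives and 0 in the test against a fold of 1.2. The lists share no gene with the factors other than the 9 named for the oligopyrimidine tract.

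**Figure D5:**
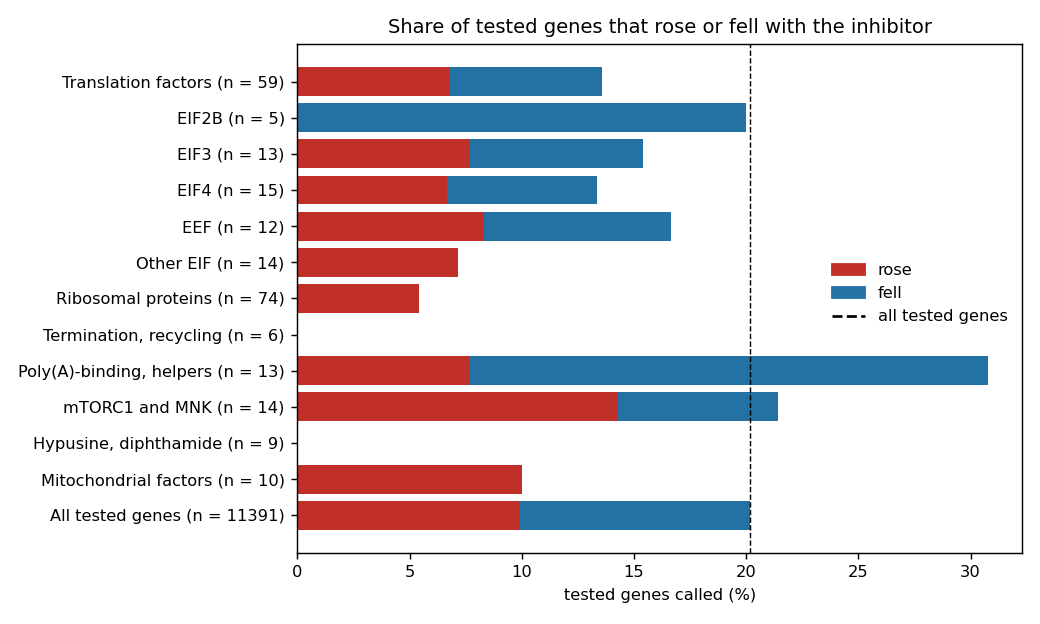
Percent of tested genes that rose (red) or fell (blue) in each group of factors, in each list of other translation genes and over all tested genes, whose 20.2% is drawn as a dashed line. The factors together reach 13.6% and the ribosomal protein genes 5.41%, and a single gene weighs heavily in the small groups, as in EIF2B with 5.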

How the data were processed

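The deposited values are whole-number counts of reads per gene symbol, without normalization, in 1 table per library with the same 20683 symbols. Per the labels' protocols, the Ion AmpliSeq Transcriptome panel was used for amplification and an Ion Proton for sequencing. The submitters' processing notes name HTSeq, DESeq2 1.20.0 and hg19, with no role. Aligner, annotation and strand are not given in the sources used. A count reports 1 amplified part of a transcript, and reads of near-identical copies could be split or lost.

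Groups came from the sample titles. Between libraries of a group, chi-square over genes was 9.32 to 14.7 times its degrees of freedom, above the noise of counting, so no library looked like a copy of another and each was counted as 1. Separate amplifications of 1 culture could differ as much. The labels do not say that the cultures were separate beyond calling them biological replicates. In R 4.3.3 with edgeR 4.0.16, filterByExpr left 11391 genes with 99.9% of the counts, TMM factors ran from 0.973 to 1.05, and the quasi-likelihood test (inhibitor minus DMSO, no covariate) was adjusted by Benjamini-Hochberg over all 11391. SE is the log2 fold change divided by the root of F, and the 95% intervals use the test's degrees of freedom. Ratios of the compared gene pairs had 0.5 counts added. The floor is 3 counts per library, and PCR reads without molecular identifiers make such floors cover counting error only.

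Alternatives were 3 other scalings, 2 other filters, a replicate block, DESeq2 1.42.0, limma voom (limma 3.58.1), a test against a fold of 1.2, thinned libraries, a fit without the 20 most abundant genes, and 6 fits without 1 library each. The test was tried on simulated data. Per-library values are given for called members with a mean of at least 10 CPM, for the most abundant member without a call in each group, for paralogues, and for further members where a sentence turns on them. Members and lists were chosen with earlier results of these data known. Promoter sequences were matched by symbol for 52 of the 66 genes. Some sequences of these genes are not reported here.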

Additional observations from a re-analysis of the deposited data

How the results depend on the processing

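With the test against a fold of 1.2, the count of changed genes was 829 in place of 2298, 0 members rose and 1 fell, 1 EIF3 gene and 0 EIF2B, EIF4, EEF and other EIF genes were called, and 2 genes of the other translation lists in place of 12. With library totals alone, 11 members fell, and 3 of 5 EIF2B, 4 of 15 EIF4 and 3 of 14 other EIF genes were called. Of all tested genes 22.3% were called with that scaling, and 1714 fell. A minimum mean of 10 CPM, which leaves EIF3J-DT untested, left 1 EIF3 gene called, and leaving out the 20 most abundant genes, EEF2 among them, left 1 EEF gene. Leaving out each library in turn gave 1405 to 2246 changed genes, 1 to 4 members that rose and 1 to 4 that fell. By group it gave 0 to 1 EIF2B, 1 to 2 EIF3, 1 to 2 EIF4, 1 EEF and 0 to 1 other EIF genes, and 6 to 15 genes of the other lists. EIF3J kept its call under all 17 alternatives, and no member reversed with a call on either side. Of members without a call, 8 passed under at least 1 alternative. The causes were not tested beyond what the construction of an alternative shows.

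Replicate numbers are shared between the groups without a stated pairing. Deviations of same-numbered libraries from their group means correlated at 0.0353, -0.0203 and 0.00413, so the numbers were not taken as pairs. With a replicate block 2223 genes changed, 4 members rose and 5 fell, with 1 EIF2B, 2 EIF3, 3 EIF4, 2 EEF and 1 other EIF gene and 13 of the other lists called. EIF4A3 was the member gained (log2 fold change -0.36, edgeR adjusted p = 0.0426), and DEPTOR was not called (0.0507). A block leaves the differences of the compared gene pairs, -0.29 to 0.49, as they are by construction. Its two-sided exact sign-flip p cannot go below 0.25 with 3 pairs of libraries. The inhibitor libraries were the shallower ones, and with every library thinned to the size of the smallest 2029 genes changed, with 4 members that rose and 4 that fell.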
